A study of Mus musculus with 8 samples.

Results

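The genes described here encode the oxygen-dependent demethylases, enzymes that take methyl groups off histones, DNA or RNA with molecular oxygen, iron and 2-oxoglutarate, together with close relatives that share this chemistry. They were chosen by name as 33 genes of the JmjC, TET and AlkB families, out of 53465 gene identifiers in the count table. The rule itself uses names and no measured value, but earlier results of these data were known when the set was drawn up. All 33 were found. 32 of them passed the filter on low counts and were tested, whereas Kdm4d, which removes methyl groups from lysine 9 of histone H3 (H3K9), had between 1 and 9 counts per sample and was not tested.

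These enzymes form a class of dioxygenases. They use oxygen and 2-oxoglutarate together to oxidise a methyl group, so that their activity can follow the supply of oxygen and of the metabolite, which a transcript level does not report. Many JmjC proteins act on methylated histone lysines, TET proteins oxidise 5-methylcytosine in DNA, and many AlkB proteins repair or edit methylated bases in DNA and RNA. Other JmjC and AlkB members have other substrates or roles, given with them below. Several of the histone demethylase genes are themselves known targets of HIF-1, the transcription factor that is stabilised when oxygen is low.

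The samples were mouse mesenchymal stem cells (MSCs, stromal cells of bone able to give rise to bone, fat and cartilage) kept at 2% oxygen (hypoxia, 4 samples) or at 21% oxygen (normoxia, 4 samples). Cells came from the hind limb bones of wild-type C57BL/6N male mice of 3 to 5 months and were purified by flow cytometry on day 12 as CD45-/Ter-119-/Sca-1+/CD140a+ cells. Per the study's methods, all cells first grew at 2% oxygen, and the sorted population was then divided, so that the normoxia samples are cells shifted upward and the hypoxia samples are cells never shifted. The study examined the cells a week after the shift and describes its focus as long-term effects. No gene was altered and no other agent separates the groups. The study counts the 4 samples of each group as separate biological replicates. Gene positions below are whole genes of GENCODE M21 on GRCm38.

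Total counts were 25132141 in hypoxia sample 1 and between 12898291 and 13433824 in the other 7 samples. Of 13 known HIF target genes, 9 were lower in normoxia and 0 higher (median log2 change -0.40), beside 16.5% and 18.0% of all tested genes. Vegfa, Adm, P4ha1 and P4ha2 were not called. The 9 MSC markers summed to between 2690 and 3727 CPM (counts scaled to library size with TMM factors) in hypoxia and between 2388 and 3142 CPM in normoxia. Of 7 blood cell markers, Hbb-bs, Hba-a1 and Cd3e had 0 counts in every sample, and the list summed to 16.1 to 32.7 CPM in hypoxia and 16.4 to 30.7 CPM in normoxia. The 6 macrophage markers, led by Lyz2, Csf1r and Adgre1, summed to 509 to 1043 CPM in hypoxia and 603 to 1138 CPM in normoxia, with 1 of them higher and 1 lower, and their part in the results was not tested. The 4 endothelial markers summed to at most 2.65 CPM in any sample.

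4 of the 33 genes, Kdm3a, Kdm4b, Kdm4c and Kdm5b, are known as HIF-1 targets, and the start regions of 3 of them are shown because the values below part them into genes higher and genes lower in normoxia. The windows come from RefSeq on GRCm38.p6 and run from 250 bases before a transcript start to 50 bases after it, and no window was matched for Kdm4b. Capitals mark the core of the HIF response element, ACGTG or GCGTG, on either strand. They lie at chr6:71632868-71633167 on the minus strand for Kdm3a, at chr4:74251629-74251928 on the plus strand for Kdm4c, and at chr1:134559928-134560227 on the plus strand for Kdm5b.
Kdm3a: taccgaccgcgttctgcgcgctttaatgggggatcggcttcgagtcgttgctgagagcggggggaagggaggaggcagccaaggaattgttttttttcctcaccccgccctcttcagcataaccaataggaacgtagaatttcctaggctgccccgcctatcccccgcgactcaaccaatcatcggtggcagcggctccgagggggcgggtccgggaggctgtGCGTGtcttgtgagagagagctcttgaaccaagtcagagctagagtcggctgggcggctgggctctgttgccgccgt
Kdm4c: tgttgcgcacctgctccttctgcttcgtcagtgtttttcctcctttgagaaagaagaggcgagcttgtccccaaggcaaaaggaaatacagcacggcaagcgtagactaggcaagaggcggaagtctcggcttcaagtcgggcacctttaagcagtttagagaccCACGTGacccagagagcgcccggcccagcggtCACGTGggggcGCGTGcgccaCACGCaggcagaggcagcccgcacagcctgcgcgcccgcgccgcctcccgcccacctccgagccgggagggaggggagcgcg
Kdm5b: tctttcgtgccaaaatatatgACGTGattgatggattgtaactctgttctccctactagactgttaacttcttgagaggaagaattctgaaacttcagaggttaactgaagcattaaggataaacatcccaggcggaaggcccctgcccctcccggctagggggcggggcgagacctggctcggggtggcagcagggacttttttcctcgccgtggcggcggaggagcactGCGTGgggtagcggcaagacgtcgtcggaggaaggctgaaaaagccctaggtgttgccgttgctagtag

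The Kdm3a window holds 1 core match, the Kdm5b window 2 and the Kdm4c window 6, where each palindromic CACGTG counts on both strands. The Kdm4c window belongs to a start 9382 bases downstream of the GENCODE gene start, and the window at that gene start holds 0 matches, as do the other windows of Kdm3a. Of the 28 genes with a window, 16 (57.1%) held the core in the window nearest the gene start, beside 43.8% of all 32851 windows, which count some genes more than once. By the call made below, the core was in 4 of 7 genes higher in normoxia, 3 of 8 lower and 9 of 12 not called. For some genes even the nearest window lay far from the GENCODE gene start. The distance was 30963 bases for Jmjd1c (core present), 21672 for Tet1 and 17406 for Tet3 (both without it). A match describes letters only, and no binding was measured here.

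Transcripts of most of these enzymes were present in both conditions, and 29 of the 33 genes reached 1 CPM per kb. Levels are compared between genes only as CPM per kb of merged exons, averaged over the 8 samples. Kdm4a, which demethylates trimethylated H3K9 and H3K36, stood first at 23.4 CPM per kb, next to Alkbh5, an eraser of N6-methyladenosine (m6A) in RNA, at 23.3 CPM per kb. Their samples overlapped, and by this length both lay above those of Kdm5c at 15.6 CPM per kb. Fto, the other m6A eraser, followed at 14.2, Phf2 at 11.2, Kdm6b at 8.63 and Kdm4b at 8.08 CPM per kb. Among neighbours in this order, samples failed to overlap only between Alkbh5 and Kdm5c, between Kdm8 (1.36 CPM per kb) and Hspbap1 (0.712) and between Tet2 (0.531) and Tet1 (0.130). The order depends on the length used, and per kb of the longest transcript Fto came first at 39.4 CPM per kb, before Kdm4a at 29.1 and Alkbh5 at 24.3. By merged exons, the 4 genes below 1 CPM per kb were Hspbap1, Tet2, Tet1 and Kdm4d. Of all tested genes, 12.7% had a higher level per kb of merged exons than Kdm4a and 97.3% a higher level than Tet1.

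**Figure D1:**
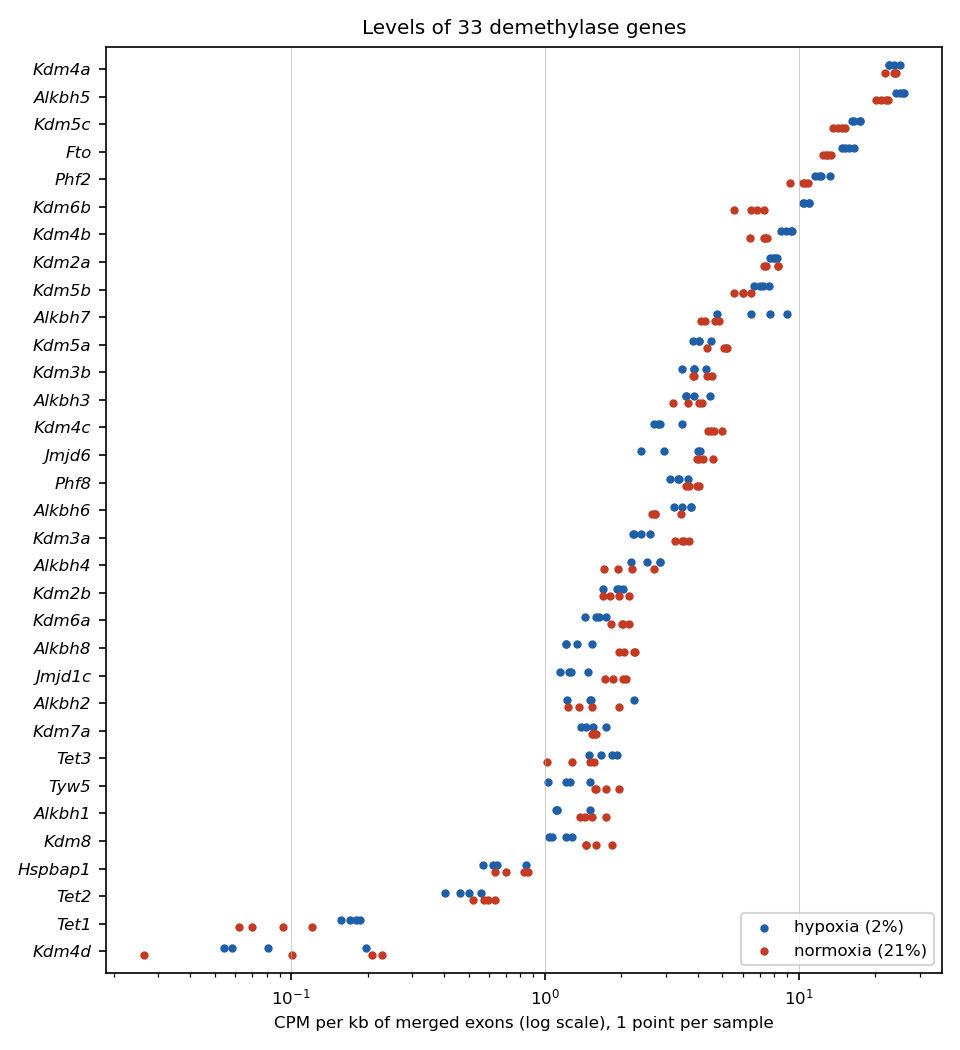
Levels of the 33 demethylase genes in CPM per kb of merged exons (log scale), 1 point per sample, blue for hypoxia (2% oxygen) and red for normoxia (21% oxygen), ordered by the mean over all samples. By this length Kdm4a and Alkbh5 lead at 23.4 and 23.3 CPM per kb (per kb of the longest transcript Fto leads at 39.4), and Tet1 and Kdm4d end the order at 0.130 and 0.119.

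To ask how the oxygen level changed these transcripts, each gene was compared by limma-trend with Benjamini-Hochberg adjustment over all 14369 tested genes at a threshold of 0.05. 8 of the 32 tested members were higher in normoxia, beside 18.0% of all tested genes, and 10 were lower, beside 16.5%. Together 18 of the 32 were called, beside 34.6% of all tested genes. After TMM scaling, which centres most genes near 0, the median log2 change was -0.00185 over the 32 members and 0.00485 over all tested genes. The groups were fully apart for 7 members that were higher and for 8 that were lower, beside 17.1% and 15.5% of all tested genes. With samples of equal number paired by a replicate block, 11 members were higher and 11 lower, beside 23.3% and 22.7% of all tested genes. With the library totals in place of TMM factors the split moved to 12 members higher and 4 lower, beside 25.1% and 11.0%, while the median of all genes moved to 0.0892, and no called member changed direction. In bulk samples, fewer cells of a type and less RNA per cell cannot be told apart.

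**Figure D2:**
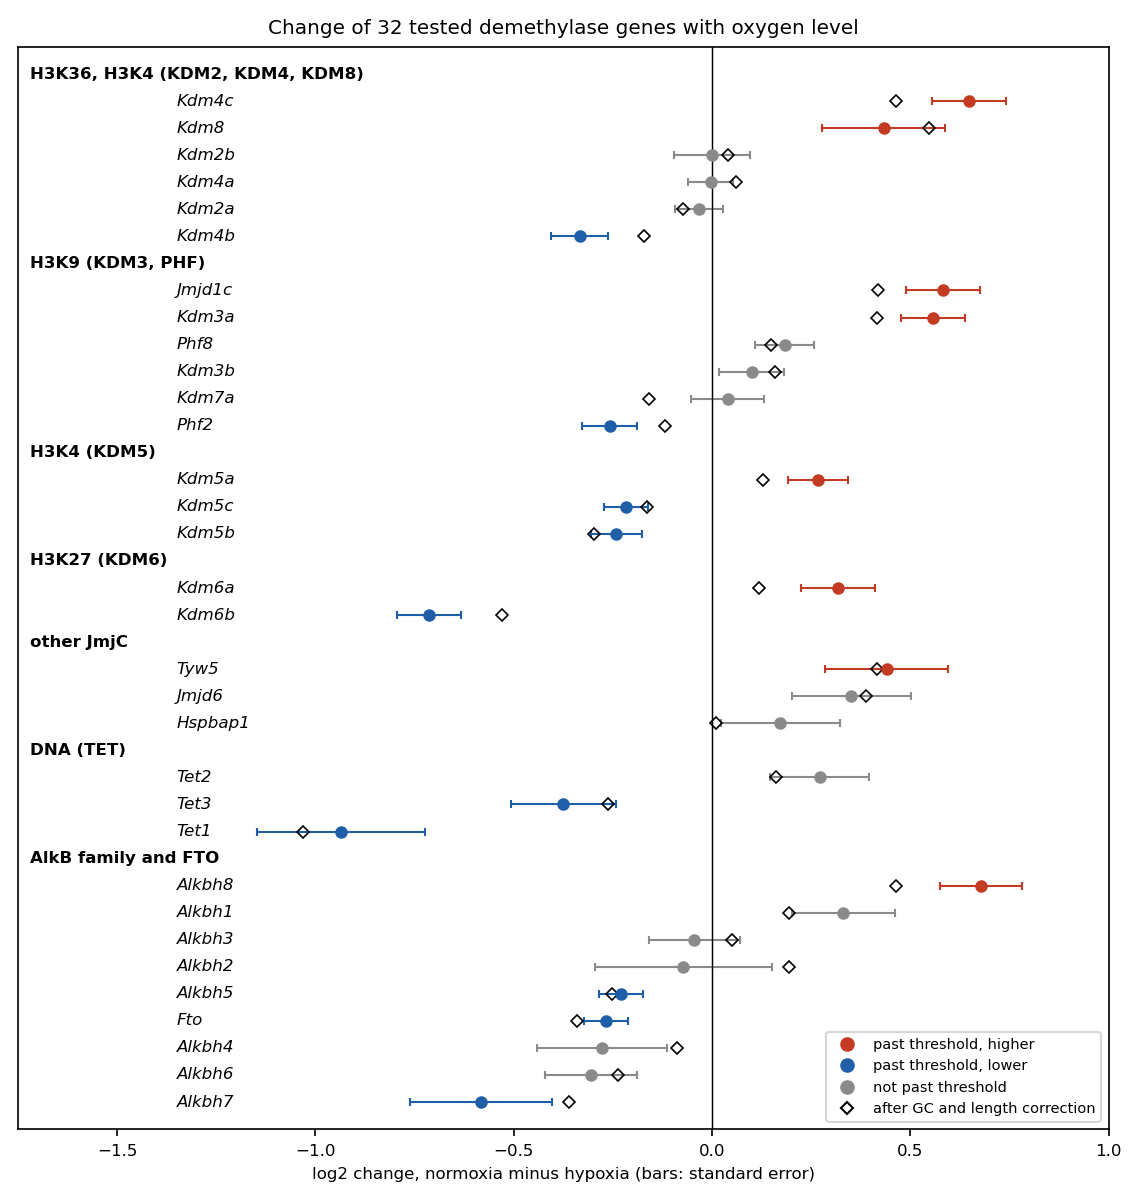
Log2 change, normoxia minus hypoxia, of the 32 tested demethylase genes, grouped by substrate, with bars for the standard error, red and blue points for genes past the threshold and grey points for the others. Open diamonds give the change after correction for GC content and length with samples of equal number paired. Changes run from -0.94 for Tet1 to 0.68 for Alkbh8, and called genes of both directions appear in the H3K36, H3K9, KDM5, KDM6 and AlkB groups.

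The H3K27 demethylases moved apart. Kdm6b (JMJD3, chr11:69398508-69413675), which removes the Polycomb mark H3K27me3 and is known as an inducible gene, had 72.1, 73.1, 76.4 and 76.0 CPM in hypoxia samples 1 to 4 and 38.5, 45.2, 47.6 and 50.8 CPM in normoxia samples 1 to 4. Every normoxia sample lay below every hypoxia sample. Its mean fell from 74.4 ± 2.13 to 45.5 ± 5.23 CPM (SD, n = 4), a log2 change of -0.71 (SE 0.081, limma-trend, adjusted p = 0.00011). Kdm6a (UTX, chrX:18162575-18279936), a subunit of the MLL3/MLL4 methyltransferase complexes with the same substrate, had 13.7, 14.5, 13.3 and 12.0 CPM in hypoxia and 15.2, 16.8, 18.0 and 17.0 CPM in normoxia. Its groups did not overlap either, and its log2 change was 0.32 (SE 0.094, limma-trend, adjusted p = 0.020). Per kb of exons, Kdm6b went from 10.7 to 6.55 CPM per kb and Kdm6a from 1.60 to 2.00 CPM per kb, so Kdm6b stayed the more abundant of the pair. The Kdm6a call was lost with GC content and length corrected and samples paired (log2 change 0.12, limma-trend, adjusted p = 0.30) and without hypoxia sample 4 or normoxia sample 2, 3 or 4 (log2 changes of 0.27 to 0.30, adjusted p from 0.0526 to 0.0697).

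Among enzymes that act on H3K36 and H3K9, the KDM4 paralogs, which share the trimethylated forms of both lysines as substrates, took 3 courses. Kdm4c (chr4:74242497-74405860) had 16.6, 20.2, 16.2 and 15.7 CPM in hypoxia and 25.5, 27, 29.0 and 26.2 CPM in normoxia, and all normoxia samples lay above all hypoxia samples. It rose by 0.65 on the log2 scale (SE 0.093, limma-trend, adjusted p = 0.00039), from 17.2 ± 2.06 to 26.9 ± 1.51 CPM (SD, n = 4), or 1.57-fold. Kdm4b (chr17:56326062-56402870) had 41.5, 45.8, 43.6 and 45.5 CPM in hypoxia and 31.4, 35.7, 36.1 and 36.7 CPM in normoxia, again without overlap but in the other direction. It fell by 0.33 (SE 0.071, limma-trend, adjusted p = 0.0037), and 0.17 of this remained after the GC and length correction with pairing (-0.17, adjusted p = 0.022), while without pairing the corrected value missed the threshold (adjusted p = 0.060). Kdm4a had a mean of 136 ± 6.53 CPM in hypoxia and 135 ± 5.92 CPM in normoxia, and the 95% interval of its log2 change ran from -0.13 to 0.12.

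The KDM2 proteins, H3K36 demethylases that bind unmethylated CpG islands, did not pass the test. Kdm2b had 18.3, 22.1, 20.8 and 21.2 CPM in hypoxia and 18.4, 21.2, 23.4 and 19.7 CPM in normoxia, with fully overlapping groups and a 95% interval of the log2 change from -0.21 to 0.21. Kdm2a had a log2 change of -0.03 with an interval from -0.16 to 0.10. Kdm8, first described as an H3K36me2 demethylase, had few counts (31 to 73 per sample) and was at 3.05, 2.49, 2.89 and 2.54 CPM in hypoxia and 3.79, 3.46, 4.40 and 3.47 CPM in normoxia. Its groups did not overlap, and its log2 change of 0.43 (SE 0.15) lay just inside the threshold (limma-trend, adjusted p = 0.047). This call was lost when any sample but hypoxia sample 1 was left out (log2 changes of 0.35 to 0.46, adjusted p from 0.0697 to 0.146), and by the edgeR (adjusted p = 0.054) and DESeq2 (adjusted p = 0.12) tests.

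The KDM3 enzymes of the set, which remove mono- and dimethylation from H3K9, were higher in normoxia in 2 of 3 cases, beside 18.0% of all tested genes. Kdm3a (chr6:71588972-71632990), often used as a marker of the HIF response, had 19.7, 21.3, 18.2 and 18.5 CPM in hypoxia and 26.7, 30.5, 29.1 and 28.4 CPM in normoxia. Every normoxia sample exceeded every hypoxia sample. Its mean rose from 19.4 ± 1.43 to 28.7 ± 1.58 CPM (SD, n = 4), 1.47-fold or 0.56 on the log2 scale (SE 0.081, limma-trend, adjusted p = 0.00039). Jmjd1c (chr10:67096125-67256326), a large relative whose H3K9 activity is debated, had 22.6, 26.3, 22.2 and 20.4 CPM in hypoxia and 30.7, 36.1, 33.1 and 37.2 CPM in normoxia. These groups were also apart, with a rise of 0.58 (SE 0.093, limma-trend, adjusted p = 0.0007). Kdm3b had a log2 change of 0.10 (SE 0.081) and overlapping groups (limma-trend, adjusted p = 0.38). It passed the test only after the GC and length correction with pairing (0.16, adjusted p = 0.034).

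In the PHF group, Phf2, an H3K9me2 demethylase active after phosphorylation, fell from 67.3 ± 3.82 to 56.3 ± 4.07 CPM (SD, n = 4), with no overlap between the groups and a log2 change of -0.26 (SE 0.070, limma-trend, adjusted p = 0.013). The Phf2 call was lost after the GC and length correction with pairing (-0.12, adjusted p = 0.083) and with library totals alone (-0.17, adjusted p = 0.077). Phf8, which acts on H3K9me2 and H4K20me1, had a log2 change of 0.18 (SE 0.074, limma-trend, adjusted p = 0.073). It was higher in normoxia in 4 of 4 pairs and passed with the replicate block (adjusted p = 0.031) and without hypoxia sample 1 (0.22, adjusted p = 0.0364). Kdm7a, the third enzyme of the group, had 15.4 ± 1.52 CPM in hypoxia and 15.7 ± 0.255 CPM in normoxia (SD, n = 4), a log2 change of 0.04 with an interval from -0.16 to 0.24.

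All 3 KDM5 enzymes of the set, which erase di- and trimethylation of H3K4 at promoters, passed the threshold, beside 34.6% of all tested genes. The Y-linked Kdm5d, outside the set, is given below. Kdm5b (chr1:134560171-134635285) had 116, 126, 120 and 110 CPM in hypoxia and 92.2, 99.8, 99.9 and 108 CPM in normoxia, and the groups did not overlap. It fell by 0.24 on the log2 scale (SE 0.064, limma-trend, adjusted p = 0.012). Kdm5c fell by 0.22 (SE 0.056, limma-trend, adjusted p = 0.011), from 120 ± 4.50 to 103 ± 4.54 CPM (SD, n = 4), also without overlap. Both falls missed the threshold with library totals alone (adjusted p = 0.075 for Kdm5b and 0.092 for Kdm5c). Kdm5a had 57.1, 64.0, 54.3 and 57.1 CPM in hypoxia and 61.6, 73.5, 71.9 and 73.1 CPM in normoxia, where normoxia sample 1 lay below hypoxia sample 2. It rose by 0.27 (SE 0.075, limma-trend, adjusted p = 0.017). The Kdm5a call was lost after the GC and length correction with pairing (0.13, adjusted p = 0.058) and without hypoxia sample 3 or normoxia sample 2, 3 or 4 (0.23 to 0.25, adjusted p from 0.0530 to 0.0595). Without normoxia sample 1, which stood apart from the other normoxia samples, the rise was 0.31 (adjusted p = 0.0065).

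**Figure D3:**
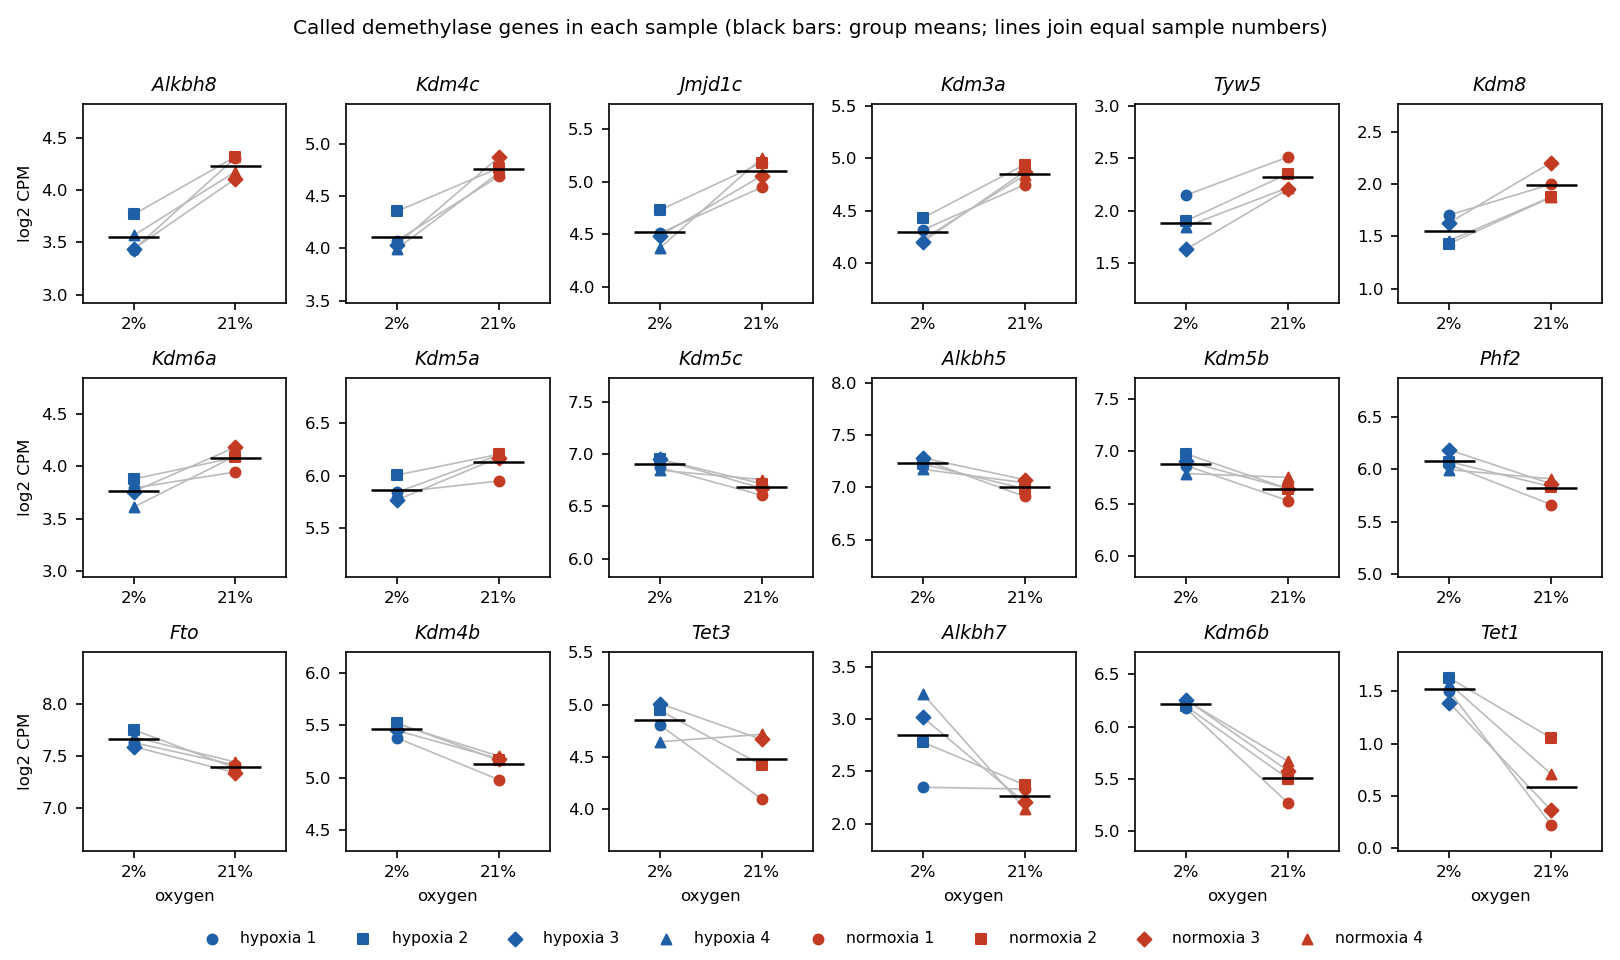
Log2 CPM of the 18 called demethylase genes in each of the 8 samples, hypoxia (2% oxygen) in blue at the left of each panel and normoxia (21% oxygen) in red at the right, with black bars for group means and grey lines between samples of equal number. All panels span the same log2 range. The groups are apart in 15 panels, and they overlap for Kdm5a, Tet3 and Alkbh7.

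The DNA demethylation enzymes included the largest change among the 32 tested members. Tet1 (chr10:62804570-62908996) had 2.63, 2.89, 2.42 and 2.77 CPM in hypoxia and 0.965, 1.87, 1.08 and 1.43 CPM in normoxia. Although only 13 to 63 counts per sample support these values, every normoxia sample lay below every hypoxia sample. Tet1 fell by 0.94 on the log2 scale (SE 0.21, limma-trend, adjusted p = 0.0051), from 2.68 ± 0.202 to 1.34 ± 0.408 CPM (SD, n = 4), and by 1.03 after the GC and length correction with pairing (limma-trend, adjusted p = 0.00017). Tet3 had 27.8, 30.6, 32 and 24.8 CPM in hypoxia and 16.9, 21.2, 25.2 and 26.1 CPM in normoxia. Its groups overlapped and it was lower in 3 of 4 pairs, with a log2 change of -0.37 (SE 0.13, limma-trend, adjusted p = 0.043).

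The Tet3 call was lost without hypoxia sample 2 or 3 or normoxia sample 1 or 2 (log2 changes of -0.37 to -0.26, adjusted p from 0.0803 to 0.122) and with library totals alone (-0.29, adjusted p = 0.11). With the GC and length correction it was -0.26, past the threshold with pairing (adjusted p = 0.0077) and not without it (adjusted p = 0.078). Tet2, frequently mutated in blood cancers, had 8.44, 9.47, 7.81 and 6.78 CPM in hypoxia and 8.76, 9.72, 10.03 and 10.7 CPM in normoxia. It was higher in 4 of 4 pairs with overlapping groups, and its log2 change of 0.27 (SE 0.12) did not pass the test (limma-trend, adjusted p = 0.11). Per kb of exons, the order Tet3, Tet2, Tet1 held in every sample, with 1.72, 0.482 and 0.173 CPM per kb in hypoxia and 1.34, 0.581 and 0.0866 CPM per kb in normoxia.

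Of the 9 AlkB family genes, 1 was higher in normoxia and 3 were lower, beside 18.0% and 16.5% of all tested genes. The riser was Alkbh8 (chr9:3335140-3391154), which modifies the wobble uridine of transfer RNAs, with 10.6, 13.4, 10.6 and 11.6 CPM in hypoxia and 19.6, 19.7, 17.0 and 17.9 CPM in normoxia. Its groups were far apart. The rise was 1.60-fold or 0.68 on the log2 scale (SE 0.10, limma-trend, adjusted p = 0.0005), and 0.46 after the GC and length correction with pairing (adjusted p = 0.00014).

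Both m6A erasers were lower in normoxia. Fto (chr8:91313525-91668439) had 198, 215, 193 and 205 CPM in hypoxia and 170, 167, 162 and 174 CPM in normoxia, without overlap. It fell by 0.27 on the log2 scale (SE 0.055, limma-trend, adjusted p = 0.0028), from 203 ± 9.93 to 168 ± 5.08 CPM (SD, n = 4), and by 0.34 after the GC and length correction with pairing (adjusted p = 2.3e-07). Alkbh5 (chr11:60536381-60558512) had 154, 149, 155 and 144 CPM in hypoxia and 120, 127, 135 and 132 CPM in normoxia, likewise without overlap. Its fall was 0.23 (SE 0.056, limma-trend, adjusted p = 0.0073), and with library totals alone it was 0.14 and missed the threshold (-0.14, adjusted p = 0.061). Alkbh7, a mitochondrial protein linked to programmed necrosis, ranged from 4.89 to 9.25 CPM in hypoxia (4.89, 6.66, 7.88 and 9.25) and had 4.83, 4.97, 4.40 and 4.22 CPM in normoxia. Normoxia sample 2 exceeded hypoxia sample 1. Its log2 change was -0.58 (SE 0.18, limma-trend, adjusted p = 0.024), and the call was lost without hypoxia sample 3 or 4 or normoxia sample 3 or 4 (-0.57 to -0.45, adjusted p from 0.0567 to 0.0788). After the GC and length correction the change of Alkbh7 was -0.36, with an adjusted p of 0.048 with pairing and 0.13 without it (limma-trend).

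The other 5 AlkB genes did not pass the test. Alkbh1, a transfer RNA demethylase found in mitochondria, had a log2 change of 0.33 (SE 0.13, limma-trend, adjusted p = 0.068) and Alkbh6 one of -0.31 (SE 0.12, limma-trend, adjusted p = 0.059). Both moved the same way in 4 of 4 pairs and passed with the replicate block (adjusted p = 0.025 and 0.030). Alkbh1 also passed without hypoxia sample 4 (0.44, adjusted p = 0.0215), and Alkbh6 without hypoxia sample 2 or normoxia sample 3 (-0.40 to -0.35, adjusted p from 0.0254 to 0.0473). Alkbh2 and Alkbh3, which repair alkylated bases, had log2 changes of -0.07 (interval -0.56 to 0.41) and -0.04 (interval -0.29 to 0.21). Alkbh4, which demethylates actin, had one of -0.28 (interval -0.63 to 0.08). Exons of Alkbh2 overlap those of Usp30 on the other strand along 29.5% of their length, and whether counting used strand is not given in the sources used here.

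Of the remaining JmjC proteins, Tyw5, a hydroxylase in the making of wybutosine in transfer RNA, had 4.22, 3.53, 2.89 and 3.39 CPM in hypoxia and 5.50, 4.90, 4.40 and 4.45 CPM in normoxia. The groups did not overlap. Its log2 change was 0.44 (SE 0.15, limma-trend, adjusted p = 0.044). This call was lost when any sample but hypoxia sample 1 was left out (0.36 to 0.47, adjusted p from 0.0653 to 0.134). It was also lost with the GC and length correction without pairing (0.42, adjusted p = 0.058), and in 13 of 21 alternatives in all. Exons of Tyw5 overlap those of Maip1 along 25.6% of their length. Jmjd6, which hydroxylates lysines of splicing factors, had 19.1, 11.2, 18.7 and 13.9 CPM in hypoxia and 21.5, 19.7, 19.0 and 18.6 CPM in normoxia. It was higher in 4 of 4 pairs, but the groups overlapped, and its log2 change of 0.35 (SE 0.15) did not pass (limma-trend, adjusted p = 0.091). Jmjd6 passed with the replicate block (adjusted p = 0.0077), without hypoxia sample 1 (0.45, adjusted p = 0.0250) and after the GC and length correction with pairing (0.39, adjusted p = 0.0021). Hspbap1 had a log2 change of 0.17 with an interval from -0.15 to 0.50.

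The 4 members known as HIF-1 targets, whose start regions are printed above where matched, thus divided evenly. Of all tested genes, 18.0% were called higher and 16.5% lower. Kdm3a and Kdm4c were higher in normoxia by 0.56 and 0.65 on the log2 scale, and Kdm4b and Kdm5b lower by 0.33 and 0.24 (-0.33 and -0.24). All 4 kept these calls after the GC and length correction with pairing (0.42 and 0.46 for Kdm3a and Kdm4c, -0.17 and -0.30 for Kdm4b and Kdm5b) and in each of the 8 fits that left out 1 sample. Kdm4b missed the threshold after that correction without pairing (limma-trend, adjusted p = 0.060). Kdm5b missed it with library totals alone (limma-trend, adjusted p = 0.075).

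Paralogs with a shared substrate were also set against each other as log2 ratios within each sample, for 17 pairs. These ratios were formed after the values of the single genes were seen, and they are given as a description with no test. They use log2 CPM with no length term, so their levels are not ratios of abundance per kb, and only their shifts are read. The groups did not overlap for 11 of the 17 ratios, and 14 moved the same way in 4 of 4 pairs of equal number. The same share over other gene pairs was not computed. Genes recur among the ratios and many were called singly, so these counts describe only these 17 ratios. The ratio of Kdm6a to Kdm6b had the largest upward shift, by 1.03 on the log2 scale, from -2.46 to -1.43, and by 0.65 after the GC and length correction. The ratio of Tet1 to Tet2 went from -1.52 to -2.73, a shift of -1.21 (-1.19 after the correction). Within KDM4, the ratio of Kdm4b to Kdm4c shifted by -0.98, from 1.36 to 0.37, with -0.64 after the correction, and Kdm4a lay between them (-0.65 against Kdm4c and 0.33 against Kdm4b). The ratio of Kdm5a to Kdm5b shifted by 0.51 (0.43 after the correction) and that of Kdm5a to Kdm5c by 0.48 (0.29 after it).

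Other ratios had shifts near 0, namely those of Kdm5b to Kdm5c (-0.02), of Kdm3a to Jmjd1c (-0.02) and of Kdm2a to Kdm2b (-0.03). The ratio of Kdm3a to Kdm3b shifted by 0.46 and that of Kdm3b to Jmjd1c by -0.48, with 0.26 and -0.26 after the GC and length correction. By the same correction the ratio of Phf2 to Phf8 went from -0.44 to -0.27, that of Kdm7a to Phf8 from -0.14 to -0.31, and that of Kdm7a to Phf2 turned from 0.30 to -0.04.

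**Figure D4:**
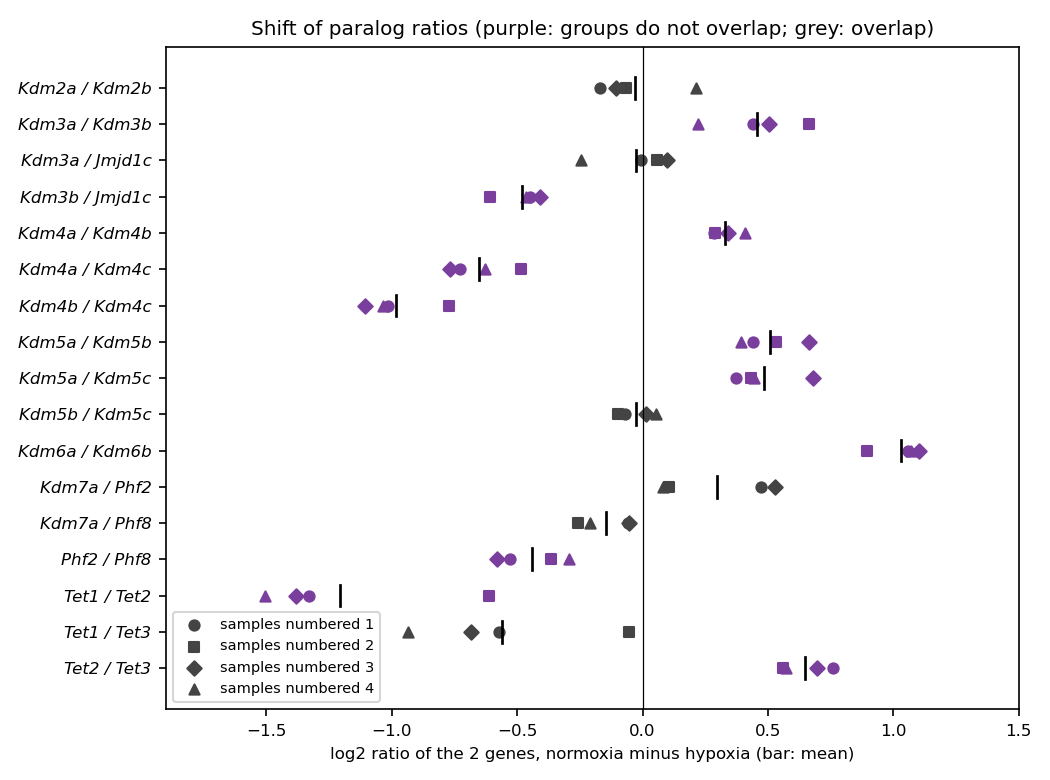
Shift of the log2 ratio between 2 paralogs, normoxia minus hypoxia, for 17 ratios. Each symbol is the difference between the samples of 1 number, the bar is the mean, purple marks ratios whose groups do not overlap and grey those that do. The shift is 1.03 for Kdm6a to Kdm6b and -1.21 for Tet1 to Tet2, and it is -0.02 for Kdm5b to Kdm5c and for Kdm3a to Jmjd1c.

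The changes went along with the base composition of the transcripts. Over 14353 tested genes the Spearman correlation of the log2 change with the GC content of the longest transcript was -0.39, and over the 32 members it was -0.56, as a description across genes that share the same 8 samples. Members higher in normoxia had a median GC content of 43.5% (range 40.2% to 54.3%), those lower 53.1% (43.7% to 59.6%) and those not called 50.9%. Below 45% GC, 33.4% of all tested genes were higher in normoxia, and 5 of 8 members were. Above 55% GC, 32.3% of all tested genes were lower, and 4 of 6 members were. With GC content and length corrected in each sample and samples paired, 8 members were higher and 9 lower, beside 21.7% and 21.5% of all genes, 6 of the 8 and 9 of the 10 original calls stayed, and none turned. Without the pairing the same correction left 5 higher and 6 lower, beside 15.1% and 14.4%. Of the 10 falling members, the change was larger after the correction for Tet1 (-1.03), Fto (-0.34), Kdm5b (-0.30) and Alkbh5 (-0.25), and smaller for the other 6. A real change that runs with GC content would be taken out by this correction too.

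**Figure D5:**
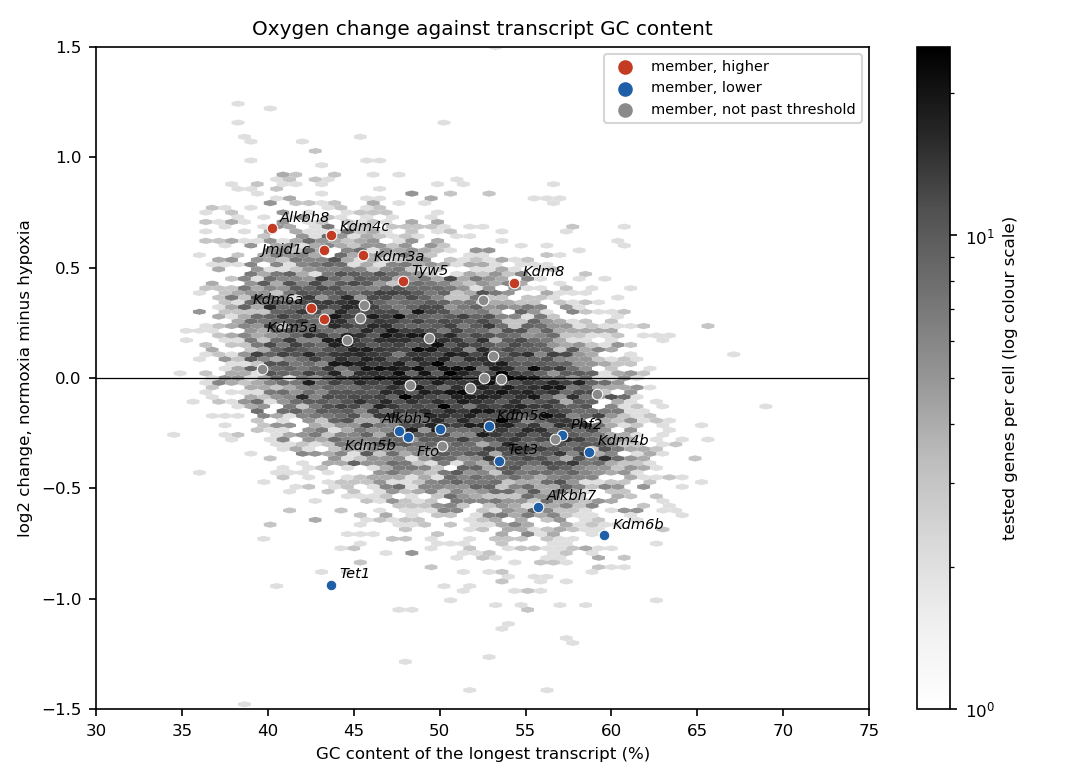
Log2 change, normoxia minus hypoxia, against the GC content of the longest transcript for 14353 tested genes (grey density, 67 genes beyond the vertical axis not drawn) with the 32 tested demethylase genes as points, red for higher, blue for lower and grey for not called. Red points cluster at the left, with a median of 43.5% GC, and blue points at the right, with a median of 53.1%, while Tet1 at 43.7% lies at the bottom left.

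The genes that write the same marks, or erase them by other means, were read from lists. Of 10 tested JmjC genes outside the set, 2 were higher, the Y-linked paralogs of Kdm5c and Kdm6a (Kdm5d with a log2 change of 0.34, limma-trend, adjusted p = 0.0054, and Uty), and 2 were lower (Jmjd8 with -0.77, adjusted p = 0.00025, and Hr). Reads that fit both a member and its Y-linked copy cannot be assigned here. Of 5 flavin-dependent demethylase genes and partners, which use oxygen without 2-oxoglutarate, Kdm1a (LSD1) was higher (0.30, limma-trend, adjusted p = 0.0047), and its cofactors Rcor2 (-0.83, adjusted p = 0.00051) and Rcor3 were lower. After the GC and length correction with pairing the change of Kdm5d was 0.18 and that of Hr -0.37, and Uty did not pass (0.06, limma-trend, adjusted p = 0.59).

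Among the writers, the 11 genes of H3K4 methyltransferase complexes included 0 higher and 2 lower, with Kmt2d, whose complex contains Kdm6a, at -0.68 (SE 0.12, limma-trend, adjusted p = 0.0012) and Setd1b. After the GC and length correction with pairing Kmt2d was at -0.39. Of 7 H3K36 methyltransferases 5 were higher and 0 lower (Setd2, which writes H3K36me3, at 0.33, limma-trend, adjusted p = 0.0079). After that correction Setd2 was at 0.19, Nsd2 no longer passed (0.08, limma-trend, adjusted p = 0.37) and Smyd2, not called before, did (0.27, adjusted p = 0.0033). Of 4 Polycomb PRC2 genes, which write the mark that Kdm6a and Kdm6b erase, 2 were higher (Suz12 at 0.40, limma-trend, adjusted p = 0.0045, and Eed). Suz12 was at 0.18 after the correction, past the threshold with pairing (limma-trend, adjusted p = 0.021) and not without it (adjusted p = 0.11). Of 6 H3K9 methyltransferases Setdb2 was higher (0.41, limma-trend, adjusted p = 0.034) and Ehmt2 (G9a) lower (-0.37, adjusted p = 0.00083), and after the correction with pairing Setdb2 did not pass (0.22, adjusted p = 0.21) and Ehmt2 was at -0.18. Of 7 DNA methyltransferases and 5-methylcytosine partners 1 was higher, Tdg, the glycosylase that excises TET products (0.38, limma-trend, adjusted p = 0.0064).

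Opposite to the 2 m6A erasers, 5 of 12 m6A writers and readers were higher and 0 lower, with the nuclear reader Ythdc1 at 0.50 (SE 0.091, limma-trend, adjusted p = 0.0015). After the GC and length correction with pairing this list counted 2 higher and 2 lower, with Ythdc1 at 0.26, and Fto and Alkbh5 remained lower (-0.34 and -0.25). Of 17 enzymes that make or use 2-oxoglutarate, succinate and fumarate, 3 were higher and 4 lower (Sdhc, a subunit of succinate dehydrogenase, at -0.33, limma-trend, adjusted p = 0.0019). Each of these lists is given by its counts, beside 18.0% of all tested genes called higher and 16.5% called lower.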

How the data were processed

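Raw read counts per gene were deposited by the authors as whole numbers for 53465 Ensembl identifiers. They came from single-end total RNA reads aligned to mm10 by STAR within zUMIs and counted by featureCounts, and strand, intron and multi-mapping settings are not given in the sources used here. Symbols came from GENCODE M21, which matched 53274 identifiers. As in the study's methods, genes were kept by filterByExpr (minimum count 5), leaving 14369, and tested as log2 CPM (prior count 3) by limma-trend (limma 3.58.1, edgeR 4.0.16, R 4.3.3) with Benjamini-Hochberg adjustment at 0.05. Normalization is not stated there, so TMM was used. Changes are normoxia minus hypoxia.

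Samples of equal number were taken as pairs, since the study divided a sorted population and their deviations from the group means correlated across genes (0.47, 0.28, 0.25 and 0.17). An alternative fit used the number as a replicate block. Other alternatives, given in the closing section, changed the test, scaling, filter, prior count and threshold or left out each sample. The GC and length correction removed a natural spline (5 degrees of freedom) for each property per sample. Values for every sample are printed for members called with a change of at least 0.3 and for 13 preset ones, and of each further list the largest called change each way is named, except where it is not reported here. Members and lists were chosen with earlier results of these data known. At 3 counts the floor is 0.125 to 0.241 CPM, which covers counting error only. No 2 replicates agreed within sampling noise.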

Additional observations from a re-analysis of the deposited data

Results flagged for a closer look

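4 of 66 sets of 4 samples (the counts per sample and each gene in each group) held a sample whose gap to its nearest neighbour took more of the range than Dixon's test allows at its 95% critical value, and chance gives about 1 in 20, or 3.3. For Alkbh1, hypoxia sample 4 stood at 3.33 log2 CPM, with the other 3 between 2.90 and 2.92 (ratio 0.957). For Alkbh6, normoxia sample 3 stood at 3.44 log2 CPM, with the other 3 between 3.08 and 3.12 (ratio 0.882). For Kdm5a, normoxia sample 1 stood at 5.95 log2 CPM, below the other 3 at 6.17 to 6.20 (ratio 0.876). In total counts, hypoxia sample 1 had 25132141, with the other 3 between 12929564 and 13219647 (ratio 0.976). The changes of Alkbh1, Alkbh6 and Kdm5a without these samples are given with those genes in the text above.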

How the results depend on the processing

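Of 18 called members, 7 kept their call in every alternative listed here, namely Kdm3a, Kdm4c, Kdm6b, Jmjd1c, Tet1, Alkbh8 and Fto, and no called member reversed. Members higher in normoxia numbered 5 with the GC and length correction alone, beside 15.1% of all genes, and 4 at a threshold of 0.01. When 1 sample was left out they numbered 4 to 10 (5 without hypoxia sample 3, 4 without normoxia sample 2, 3 or 4), beside 13.8% to 19.5%. Members lower numbered 6 with that correction, beside 14.4%, 4 with library totals alone, beside 11.0%, and 5 at 0.01. When 1 sample was left out, members lower numbered 8 to 10, beside 12.5% to 17.6%. No share of all genes is given here for the threshold of 0.01. The edgeR, DESeq2 and voom tests each called 6 higher and 10 lower, beside 16.1% to 17.5% and 15.4% to 16.6% of all genes. The replicate block, with 11 higher and 11 lower, added Phf8, Jmjd6, Alkbh1 and Alkbh6 and changed no other call. RLE factors gave 7 and 10, beside 17.2% each way, and no filter gave 6 and 9, beside 9.30% and 8.54%. A prior count of 1, a mean of at least 1 CPM or leaving out the 20 most counted genes gave 8 and 10, beside 17.9% to 20.2% and 16.5% to 18.3%. Non-overlapping members numbered 14 to 17 under the scaling and filter alternatives, for which no share of all genes is given here.

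Reversals touched uncalled values near 0. Library totals alone gave Kdm2a 0.056, Kdm2b 0.087, Kdm4a 0.085, Alkbh2 0.0065 and Alkbh3 0.042. The GC and length correction, with or without pairing, gave Kdm2b 0.040, Kdm4a 0.060, Kdm7a -0.16, Alkbh2 0.19 and Alkbh3 0.051, and the ratio of Kdm7a to Phf2 -0.042. Kdm2b was 0.0077 by edgeR and 0.020 by voom. Over the fits that left out 1 sample, Kdm2b ran from -0.068 to 0.040, Kdm4a from -0.031 to 0.027, Kdm7a from -0.0071 to 0.10, Alkbh2 from -0.20 to 0.079 and Alkbh3 from -0.10 to 0.022. The cause was not tested. Depth limits Kdm4d, Tet1, Alkbh2, Kdm8 and Tyw5, whose counts stayed at or below 101 per sample.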
